A study of Homo sapiens with 16 samples.

Results

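The largest gene family of the human genome, the olfactory receptors, lies in clusters on many chromosomes, and 10 such clusters were examined here in a Hi-C series of K562 cells. They were chosen by position, as the 20 kb bins of 10 intervals of build hg19 that were present in all 8 deposited files of the second sequencing run. The intervals held 483 bins, of which 479 were present, out of 137218 bins present genome-wide (0.349%). Hi-C ligates the cut ends of DNA that is close in space, and each ligated pair that is sequenced counts as a contact. K562, an established human leukaemia line with the BCR-ABL1 fusion, was fixed with formaldehyde in every sample, and by the labels the groups differed in how long the restriction enzyme HindIII was left on the nuclei: 0.25, 1, 3 or 12 h. Each time had 2 replicates, each sequenced in a first run (HiSeq, 50 kb bins) and a second run (NovaSeq, 20 kb bins). Per the design text, the short times were meant to capture the boundaries that are easiest for the enzyme to reach. The labels do not say that replicates came from separate cultures, so the p-values measure only the spread between these samples, which may be technical.

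Olfactory receptors are G protein-coupled receptors that bind odorants, and a sensory neuron of the nose uses a single one of them. In the sensory neurons of mice the other receptor genes are kept silent in heterochromatin, and clusters of different chromosomes gather in a few foci of the nucleus. The fish-like receptors sit together in 11p15, where the beta-globin genes lie among them, and the tetrapod-type receptors fill the other clusters. K562 is a blood line, and no expression values were analysed here, so which receptor genes were silent was not measured.

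The clusters were named by band. The 1q44 cluster spanned chr1:247600001-248900000 with 64 bins present, and the 6p22 cluster, beside the major histocompatibility region, chr6:29000001-29600000 with 30. The 9q33 cluster spanned chr9:125200001-125600000 with 20 bins. Chromosome 11 held 5 clusters: the fish-like receptors in 11p15 distal (chr11:4300001-5200000, 45 bins) and 11p15 proximal (chr11:5340001-6300000, 47 bins), then 11q11 (chr11:55000001-56700000, 84 bins), 11q12 (chr11:57700001-59500000, 90 bins) and 11q24 (chr11:123600001-124500000, 45 bins). The 14q11 cluster spanned chr14:20200001-20800000 with 30 bins, and the 17p13 cluster chr17:2900001-3400000 with 24. In the order of genes of RefSeq (assembly GRCh38.p14, used for names only), the runs of neighbouring receptor genes that hold a landmark gene of each interval comprised 254 of 392 protein-coding receptor genes. They ranged from 11 genes in 17p13 (OR1D5 to OR1E2) and 14 each in 6p22 (OR2W1 to OR2H2) and 9q33 to 43 in 1q44 (OR2B11 to OR14I1) and 57 in the run of 11q11 (OR4B1 to OR5AK2), which reaches past its interval. The runs follow gene order, so other runs too may not end where their interval does.

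HindIII cuts at AAGCTT, so the enzyme of this assay can act in a receptor promoter only where that word is present. Of the 254 genes, 208 had a promoter in the RefSeq table (GRCh38.p14), taken as 250 bases before to 50 after the gene start. The site was present in 15 of the 208 (7.21%), against 2051 of all 35116 promoters of that length (5.84%), searched on 1 strand because the word is its own reverse complement. Receptor promoters were poor in G and C, with a median of 37.3% against 58.7% over all promoters. Promoters with a site are shown for 4 receptors, 1 in each of 4 clusters that recur below. They are OR2B3 of 6p22 (chr6:29087264-29087563, minus strand), OR51A7 of 11p15 distal (chr11:4903533-4903832, plus strand), OR2T4 of 1q44 (chr1:248361415-248361714, plus strand) and OR4C15 of 11q11 (chr11:55554219-55554518, plus strand), all in GRCh38.p14 and written 5′ to 3′ with the HindIII site in capitals.
OR2B3: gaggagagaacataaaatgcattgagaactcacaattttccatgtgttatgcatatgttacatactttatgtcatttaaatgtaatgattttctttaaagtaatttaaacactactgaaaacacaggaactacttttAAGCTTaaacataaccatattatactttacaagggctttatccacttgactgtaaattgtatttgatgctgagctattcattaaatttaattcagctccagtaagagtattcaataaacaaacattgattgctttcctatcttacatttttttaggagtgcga
OR51A7: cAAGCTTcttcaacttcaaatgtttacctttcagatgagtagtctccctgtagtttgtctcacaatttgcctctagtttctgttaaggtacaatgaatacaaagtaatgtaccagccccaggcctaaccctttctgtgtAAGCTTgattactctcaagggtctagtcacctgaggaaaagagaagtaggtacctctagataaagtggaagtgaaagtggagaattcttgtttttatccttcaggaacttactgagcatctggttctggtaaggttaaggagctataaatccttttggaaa
OR2T4: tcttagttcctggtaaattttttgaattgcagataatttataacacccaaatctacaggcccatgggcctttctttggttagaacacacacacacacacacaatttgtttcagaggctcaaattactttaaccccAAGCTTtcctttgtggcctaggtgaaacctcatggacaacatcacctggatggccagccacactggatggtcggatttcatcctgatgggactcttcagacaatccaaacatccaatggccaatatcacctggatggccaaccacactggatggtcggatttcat
OR4C15: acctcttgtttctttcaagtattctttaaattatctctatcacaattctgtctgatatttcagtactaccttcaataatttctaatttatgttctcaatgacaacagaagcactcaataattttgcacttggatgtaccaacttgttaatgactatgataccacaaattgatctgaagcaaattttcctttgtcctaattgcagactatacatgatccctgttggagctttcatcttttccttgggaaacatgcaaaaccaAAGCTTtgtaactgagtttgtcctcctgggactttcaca
OR51A7 held 2 sites and the other 3 promoters 1 each, and the G and C content of the 4 ranged from 29% in OR2B3 to 44.3% in OR2T4. The site of OR4C15 began at base 262 of 300, past the gene start and so outside the 250 bases before it. A match says only that the letters are there, and where the sites lie in the 20 kb bins of hg19 was not analysed here.

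The second-run files held between 62777251 contacts (0.25 h, replicate 2) and 176412222 contacts (12 h, replicate 1), and both 12 h libraries were deeper than all others, so depth and time ran partly together and their parts were not told apart. Summed over receptor bins, the contacts of each bin came to between 363684 and 1119673 per library, and in 17p13, the smallest in contacts, to between 6389 and 24532. A contact inside a bin counted once in these sums, and a contact between receptor bins counted in each of them. As a check of the cell line, the window pairs of ABL1 and BCR held a mean of 2596 to 13137.5 contacts per pair in a library. Other window pairs of chromosomes 9 and 22 held a mean of 1.01 to 3.94.

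Contacts within single bins of the receptor clusters were compared across digestion times. They were read as the self-bin share, the contacts that stay inside a 20 kb bin as a percentage of all contacts of that bin. Over all receptor bins the share was 10.97% and 13.24% (replicates of 0.25 h), 10.05% and 10.19% (1 h), 9.55% and 9.41% (3 h), 5.92% and 5.84% (12 h). Every longer time was lower than every shorter one, and the largest gap between replicates, at 0.25 h, was smaller than the drop from 3 to 12 h. Against log2 hours, Spearman's rho over 8 libraries was −0.976 (two-sided exact permutation test, p = 0.000794, the smallest that these arrangements can give), and Pearson's r was −0.94 (exact p = 0.000794). Without the 0.25 h libraries r was −0.95, and without the 12 h libraries −0.84.

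All 10 clusters fell in the same order, each with rho −0.976 (exact permutation p = 0.000794, and 0.000794 after Benjamini-Hochberg adjustment over the 11 trends). With the median over a cluster's bins in place of the sum, the trend no longer passed the test in 14q11 (rho −0.683, exact permutation p = 0.0825) and 17p13 (rho −0.634, exact permutation p = 0.110). The genome as a whole fell alike: over all bins the share was 12.56% ± 1.72 (SD, n = 2) at 0.25 h and 6.15% ± 0.0738 at 12 h. As a log2 ratio to all bins, the receptor bins were at −0.0526 ± 0.00618 at 0.25 h and −0.0654 ± 0.00421 at 12 h, below 0 in all 8 libraries. That ratio gave rho −0.634 and r −0.62 with log2 hours (exact permutation p = 0.110 and 0.106), so a trend of its own was not detected, and r was −0.424 without the 0.25 h and −0.362 without the 12 h libraries. The sign depended on the setting: against the flanks rho was −0.781 and passed the test (exact permutation p = 0.0349), with contacts to the next bin included it was 0.390 (p = 0.361), and with the median over bins 0.586 (p = 0.153). Without replicate 2 of 1 h it was −0.808 (exact permutation p = 0.0381).

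**Figure D1:**
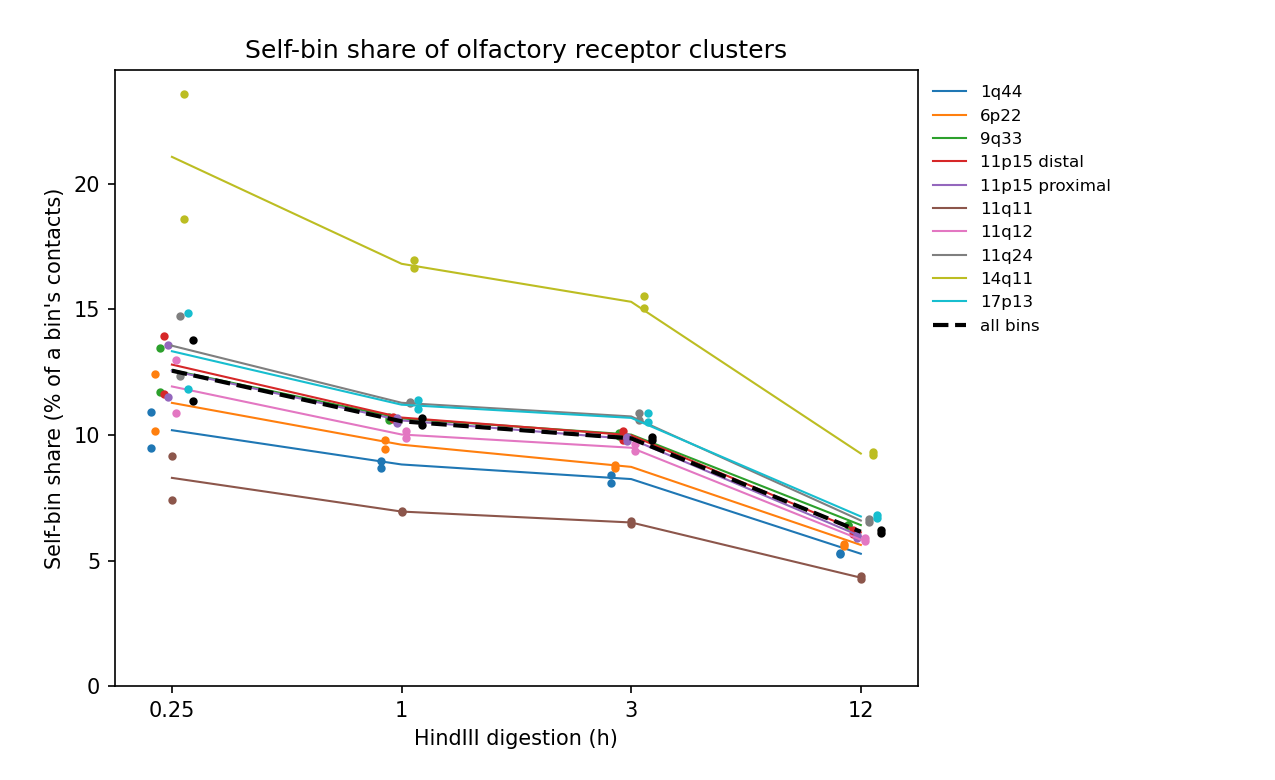
Self-bin share (percent of the contacts of a bin, y axis) against digestion time (h, evenly spaced categories, x axis). Points are libraries, slightly offset for legibility, coloured lines join the means of 2 replicates for each of the 10 clusters, and the dashed line is all bins. The 14q11 cluster lies above all others at every time (21.1% to 9.26%) and 11q11 below them (8.30% to 4.33%).

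The highest share of the 10 was that of 14q11. Its 30 bins held 18.58% and 23.55% (0.25 h), 16.66% and 16.97% (1 h), 15.54% and 15.06% (3 h), 9.33% and 9.19% (12 h). In each library it was above every other cluster. At the other end, 11q11, the tetrapod-type receptors nearest the centromere of chromosome 11, held 7.41% and 9.18% (0.25 h), 6.93% and 6.98% (1 h), 6.45% and 6.59% (3 h), 4.28% and 4.37% (12 h). The remaining 8 clusters had time means between 10.19% (1q44) and 13.55% (11q24) at 0.25 h, and between 5.28% (1q44) and 6.76% (17p13) at 12 h. The ratio of the 0.25 h to the 12 h mean ran from 1.92 in 11q11 to 2.27 in 14q11, against 2.04 over all bins. This order of the clusters rests on contacts summed over bins. By the median over bins, of shares averaged over the libraries, 14q11 (9.81%) lay close above 9q33 (9.15%). By that median 11q11 (5.21%) was not the lowest, with 11p15 distal at 5.11% and 1q44 at 5.15%.

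Set against their own flanks, the same length on either side with other clusters left out, 5 of the 10 clusters were lower in all 8 libraries (1q44, 6p22, 9q33, 11q11 and 11q12) and 2 were higher in all 8 (11q24 and 14q11). Around 1q44 the flanks averaged 12.0% over the libraries and the cluster 8.14%. For 11q11 the flanks averaged 20.3% and the cluster 6.52%. Only 65 flank bins were present there beside the 84 bins of the cluster, and these flanks stood apart from the others. The flanks of the other clusters averaged between 9.39% (11q24) and 12.0% (1q44), and the rest of chromosome 11 averaged 10.2%. In 14q11 the cluster averaged 15.6% and its flanks 10.04%. The 3 others were on both sides of their flanks. The 17p13 cluster was at 13.3% against 14.96% at 0.25 h and at 6.76% against 5.92% at 12 h. The 11p15 proximal cluster was at 12.6% against 11.9% at 0.25 h and at 5.97% against 6.55% at 12 h, and 11p15 distal at 12.8% at 0.25 h, as its flanks, and at 6.13% against 6.45% at 12 h. Between both 11p15 clusters, the 7 bins of the globin interval averaged 8.87%.

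Single bins spread widely within each cluster. Averaged over the 8 libraries, the receptor bins had a median of 5.75% and ranged from 0 to 34.6%, while all bins had a median of 6.43% and reached 61.0%. The tenth and the ninetieth percentile of all bins were 1.10% and 14.8%, and 44 receptor bins (9.19%) lay below the first and 44 above the second. The highest was chr14:20340001-20360000 in 14q11, with 40.62% and 46.39% (0.25 h), 37.16% and 37.80% (1 h), 35.87% and 34.72% (3 h), 22.08% and 21.84% (12 h). The highest bins of 6p22 (chr6:29500001-29520000, 22.9%) and of 11p15 distal (chr11:5100001-5120000, 21.9%) came next among the highest bins of the clusters. In 11q12 (chr11:59360001-59380000) the highest bin averaged 20.4%, in 11q24 (chr11:124040001-124060000) 19.6%, and in 11p15 proximal (chr11:5340001-5360000), at the edge next to the globin genes, 19.2%. The highest bins of 11q11 (chr11:56040001-56060000) and 17p13 (chr17:3340001-3360000) averaged 18.4% and 18.3%. The lowest of these maxima were those of 1q44 (chr1:248380001-248400000, 16.8%) and 9q33 (chr9:125500001-125520000, 14.1%).

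At the low end, 10 receptor bins (2.09%) had no self contact in any library, against 3231 of 137198 bins (2.35%). Summed over the 8 libraries, these 10 bins had a median of 2140 contacts, all with other bins. They were sparse, since the median receptor bin held 2175 contacts in replicate 1 of 12 h alone. Whether low depth gave the zeros was not tested. In 6 clusters a bin of this kind was the lowest: chr1:248100001-248120000 in 1q44, chr11:4800001-4820000 in 11p15 distal, chr11:5900001-5920000 in 11p15 proximal, chr11:55260001-55280000 in 11q11, chr11:58200001-58220000 in 11q12 and chr17:3380001-3400000 in 17p13. The other 4 had mean shares of 0.0992% in 14q11 (chr14:20700001-20720000), 0.225% in 6p22 (chr6:29380001-29400000), 1.31% in 9q33 (chr9:125460001-125480000) and 1.94% in 11q24 (chr11:124280001-124300000). The number of HindIII sites in these bins was not analysed here.

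Bin by bin, a limma fit on log2 of self over other contacts (adjusted over 136967 bins with at least 50 contacts in every library) found 298 of 479 receptor bins (62.2%) with a higher self-bin share at 0.25 h than at 12 h, at adjusted p under 0.05. Genome-wide 64.7% of bins were called higher, so the receptor count sits near the background. No receptor bin was called lower, where 0.147% of all bins were, and 320 receptor bins (66.8%) had an unadjusted p under 0.05 (background 68.3%). The median log2 change over all 479 receptor bins was 0.79 against 0.82 over all bins. At 1 h against 12 h, 287 receptor bins (59.9%) were higher (background 61.7%), and at 3 h against 12 h 262 (54.7%; background 56.9%), or 172 without replicate 2 of 12 h, where all bins went from 77985 to 51934. No bin was lower at either time (background 0.138% and 0.0956%). A slope on log2 hours was falling in 55.7% of receptor bins (background 59.5%) and rising in 0 (background 0.136%).

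Since the share fell in most of the genome, each library's median over all bins was also taken off, a setting chosen after seeing the data. Then 89 receptor bins were called higher at 0.25 h (18.6%; background 18.9%) and 49 lower (10.2%; background 7.56%) by limma at adjusted p under 0.05. These counts rested on single libraries: their sum of 138 became 44 without replicate 1 and 55 without replicate 2 of 12 h, and 83 without replicate 2 of 0.25 h. The bins called lower moved most: their 49 became 2 and 2 without replicates 1 and 2 of 12 h, 79 and 18 without those of 0.25 h, and 22 and 21 without those of 3 h. All bins went the same way, from 10349 lower to 984 and 986 (12 h), 21828 and 5072 (0.25 h), 6054 and 6125 (3 h). Without replicates 1 and 2 of 1 h, 37 and 35 receptor bins were lower, beside 7606 and 7632 of all bins. The share of lower receptor bins above the background thus depended on the libraries used and is not taken as a result.

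The 5 receptor bins with the largest rise towards short digestion, among those called and with libraries that did not overlap between 0.25 and 12 h, lay in 4 clusters. In chr11:58240001-58260000 of 11q12 the share was 10.92% and 22.53% at 0.25 h and 1.82% and 1.14% at 12 h, a log2 change of 3.63 (SE 0.39, limma adjusted p = 4.96e-05). In chr11:5940001-5960000 of 11p15 proximal it was 8.20% and 12.89% against 1.11% and 0.913%, a log2 change of 3.43 (limma adjusted p = 3.30e-05). The bin chr14:20540001-20560000 of 14q11 went from 20.07% and 32.49% to 3.91% and 3.02%, the bin chr1:248040001-248060000 of 1q44 from 13.10% and 23.92% to 2.22% and 2.52%, and chr11:5500001-5520000 of 11p15 proximal from 13.16% and 23.35% to 2.09% and 2.79%. The time means of 1 and 3 h lay between those of 0.25 and 12 h in all 5, and in each the second 0.25 h replicate, the shallowest library, was higher than the first. The 0.25 h libraries held 256 to 1216 contacts in these bins. No library held more than 824 contacts in chr11:58240001-58260000 or 814 in chr11:5940001-5960000. Their 12 h shares of 1.82% or less therefore stood for few self contacts, and their log2 changes rest on these. Over all receptor bins, 376 did not overlap with 0.25 h higher and 11 with 0.25 h lower, beside 78.1% and 2.15% of all bins.

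Coverage, the contacts that leave a bin in CPM, scaled to the library total of such contacts, was the second readout of single bins. By a limma-trend fit, 86 receptor bins had higher coverage at 0.25 h than at 12 h (18%; background 20.7%) and 167 had lower coverage (34.9%; background 35%) at adjusted p under 0.05. Scaled by TMM factors instead of library totals, the same fit called 115 higher (background 28.1%) and 113 lower (background 27.6%), so the balance of directions depends on the scaling. Without replicate 2 of 12 h the count of both directions fell from 253 to 168. At 1 h against 12 h, 79 were higher (16.5%; background 18.1%) and 108 lower (22.5%; background 28.9%), and at 3 h against 12 h 56 (11.7%; background 14.3%) and 89 (18.6%; background 24.1%). These counts too rested on single libraries, and so did those over all bins, which fell in both directions in each fit with a library left out given here. At 1 h, the higher bins became 39 without replicate 2 of 12 h and 42 without replicate 1 of 1 h, and the lower bins 51 without replicate 2 of 12 h, 65 without its replicate 1 and 62 without replicate 2 of 1 h. At 3 h, the higher bins became 28 without replicate 2 of 12 h and 33 without replicate 1 of 3 h, and the lower bins 37 and 50 without replicates 2 and 1 of 12 h and 52 without either replicate of 3 h.

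The counts of coverage differed by cluster, in several of them as in their surroundings. In 17p13 22 of 24 bins were lower at 0.25 h and 0 higher (20 and 0 with TMM), with 39 of 42 flank bins lower as well and 65.8% of the rest of chromosome 17. In 11q24 20 of 45 bins were higher and 5 lower (27 and 4 with TMM), while its flanks had 2 higher and 57 lower of 89 and the rest of chromosome 11 had 16.3% higher and 42.3% lower. In 14q11, 14 of 30 bins were higher and 4 lower (15 and 1 with TMM), where its flanks had 5 higher and 12 lower of 44 and the rest of chromosome 14 had 17.9% higher and 31.5% lower. The 1q44 cluster had 29 of 64 bins lower (45.3%) and 4 higher (23 and 7 with TMM), near the 42.6% lower in the rest of chromosome 1 and the 40.0% in its flanks. In 9q33, 10 of 20 bins were lower (50%) and 2 higher (8 and 3 with TMM), beside 57.5% lower in its flanks and 40.4% in the rest of chromosome 9. In 6p22, 16 of 30 were lower (53.3%) and 1 higher (13 and 3 with TMM), beside 45% lower in its flanks and 23.03% in the rest of chromosome 6. The differences between clusters and their surroundings were not tested. The other 4 clusters of chromosome 11 had more bins lower than higher by library totals, as did their flanks (40.0% to 58.8% lower): 14 and 7 in 11p15 distal, 18 and 13 in 11p15 proximal, 17 and 15 in 11q11, and 32 and 10 in 11q12. With TMM this order turned in 11p15 distal (9 lower and 10 higher of 45), 11p15 proximal (9 and 15 of 47) and 11q11 (7 and 18 of 84). The order held in 11q12 (19 and 17 of 90). Over all bins the balance moved alike, from 20.7% higher and 35% lower by library totals to 28.1% and 27.6% with TMM. Flanks and the rest of each chromosome were counted by library totals only.

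**Figure D2:**
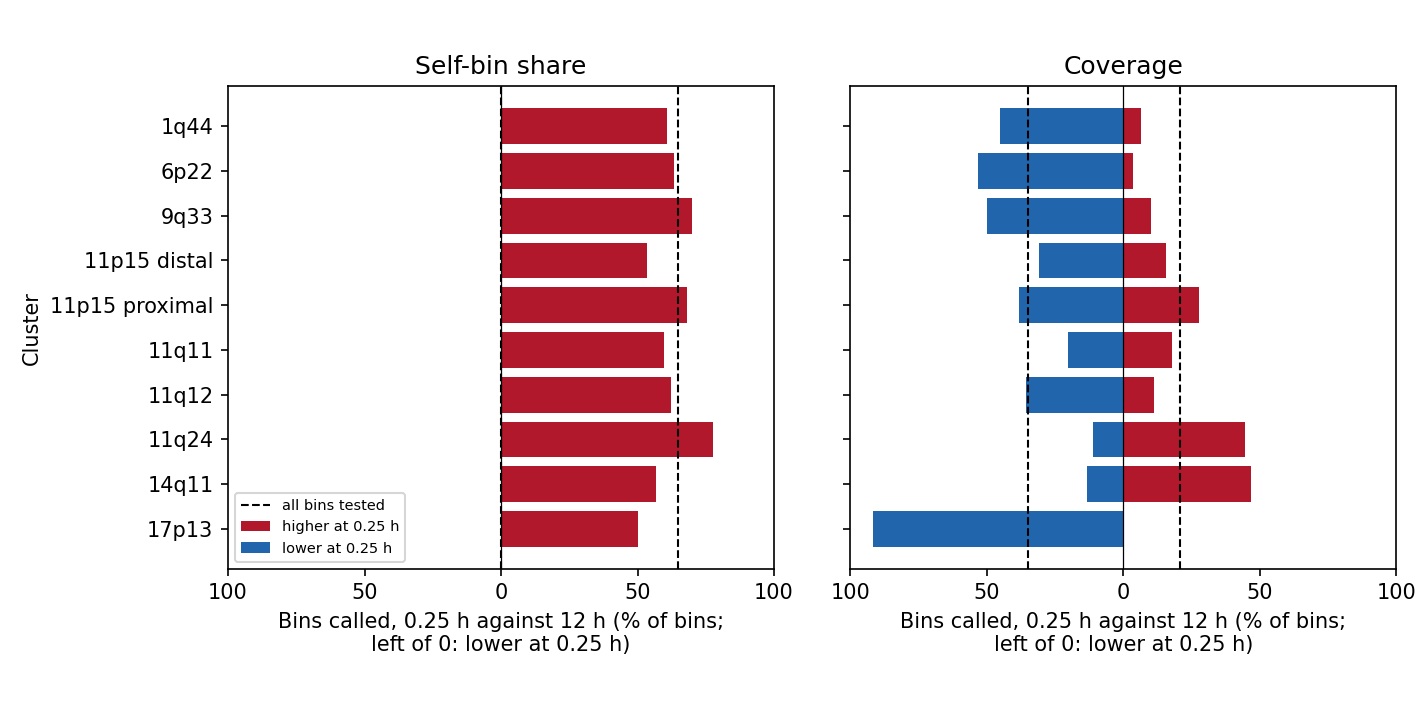
Bins called by limma between 0.25 and 12 h in each cluster, as a percentage of its bins (x axis, to the right higher and to the left lower at 0.25 h), for the self-bin share (left panel) and coverage scaled by library totals (right panel). Dashed lines mark the percentage over all bins tested; 11q24 and 14q11 show the most bins with higher coverage at 0.25 h and 17p13 the most with lower coverage.

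The 5 receptor bins with the largest coverage gain at 0.25 h were in 11q24 and 11p15, by the same rule. In chr11:124240001-124260000 of 11q24, coverage was 10.90 and 10.99 CPM (0.25 h), 10.41 and 9.996 (1 h), 9.87 and 9.37 (3 h), 7.58 and 7.19 (12 h), a log2 change of 0.57 (SE 0.04, limma adjusted p = 3.73e-09). Both 12 h libraries were below all others there. In chr11:124040001-124060000, also the bin of 11q24 with the highest self-bin share, it was 16.6 and 20.3 at 0.25 h and 13.3 and 12.8 at 12 h (log2 change 0.49), and in chr11:123980001-124000000 10.5 and 11.3 against 8.58 and 8.28 (0.37). In 11p15 the gains were 0.45 in chr11:5780001-5800000 and 0.39 in chr11:5180001-5200000, the last bin before the globin interval. The largest losses were in 17p13 and 1q44. In chr17:2920001-2940000 coverage was 1.56 and 1.43 (0.25 h), 1.82 and 1.72 (1 h), 1.90 and 2.05 (3 h), 2.43 and 2.37 (12 h), a log2 change of −0.68 (SE 0.09, limma adjusted p = 9.08e-07). The other 4 losses were −0.66 in chr17:3140001-3160000, −0.51 in chr17:2940001-2960000, −0.57 in chr1:248180001-248200000 and −0.52 in chr1:248140001-248160000. Counting trans contacts alone, the same fit called 8 receptor bins higher (background 2.42%) and 10 lower (background 3.83%), and 6 of these 10 named bins were no longer called.

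Contacts between receptor clusters of different chromosomes were then examined. The contacts of each pair of clusters were set against an expectation built from the contacts of each cluster with the other's chromosome. Over the 35 pairs on different chromosomes, 1114 contacts were observed and 942 expected, a ratio of 1.18 (95% Poisson interval 1.11 to 1.25, which covers counting error only). By library the ratio was 1.15 and 1.26 (0.25 h), 1.13 and 1.13 (1 h), 1.22 and 1.24 (3 h), 1.26 and 1.09 (12 h). It was above 1 in all 8 libraries and no trend with time was detected: rho was −0.146 and r −0.0157 (exact permutation p = 0.761 and 0.962; 0.761 adjusted over 4 pooled trends for rho), with r 0.239 without the 0.25 h and 0.136 without the 12 h libraries. Clusters with the flanks of clusters on other chromosomes gave 0.885 (interval 0.850 to 0.920, from 2433 contacts). In the first run, with 50 kb bins and few contacts, the mean over 8 libraries was 1.05 ± 0.166 (SD), and its lowest library was at 0.737.

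Single pairs rested on few contacts, with a median of 26 and a range of 7 to 86 over the 8 libraries. Their ratios had a median of 1.17, and 21 of 35 were above 1. The Poisson interval lay above 1 in 12 pairs and below 1 in 4. Window pairs of the same lengths on the same chromosomes were not centred on 1 and spread widely: their medians ran from 0.882 to 0.948, 23 of the 35 cluster pairs were above that median, and 5 were above 95% of the window pairs. Among the 12, 1q44 with 11q11 (1.39) was exceeded by 18.1% of window pairs and 1q44 with 11q24 (1.26) by 25.3%. In the first run 25 of the 35 fell on the same side of 1. The highest was 9q33 with 17p13, above 1 in 6 of 8 libraries and with 1 contact in the first run. It was at 4.70 (interval 2.504 to 8.04), but from 13 contacts where 2.76 were expected, and with a genome-wide expectation it was 2.28. It was followed by 6p22, the receptors beside the histocompatibility genes, with 11p15 distal, the fish-like receptors: 76 contacts against 28.5 expected, a ratio of 2.67 (interval 2.10 to 3.34) that was above 1 in 8 of 8 libraries. In the first run this pair was at 1.37, from 5 contacts. Next came 11p15 distal with 17p13, at 2.42 (interval 1.66 to 3.42) from 32 contacts, and at 1.29 in the first run, from 2 contacts.

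The lowest ratio belonged to 6p22 with 11q24, at 0.403 (interval 0.225 to 0.664) from 15 contacts where 37.2 were expected, and it was below 1 in every library. It was also below 1 in all 8 libraries for 3 more pairs: 9q33 with 11q11, at 0.526 (interval 0.252 to 0.968) from 10 contacts, 1q44 with 11p15 proximal, at 0.574 (interval 0.398 to 0.803) from 34 contacts, and 11q24 with 14q11, at 0.630 (interval 0.367 to 1.01) from 17 contacts. Low ratios were common among window pairs too: 91.7% were higher than 6p22 with 11q24, 79.7% higher than 9q33 with 11q11, 79.6% higher than 1q44 with 11p15 proximal and 72.9% higher than 11q24 with 14q11. In the first run 1q44 with 11p15 proximal was at 0.964, and 6p22 with 11q24 at 0.206 from 1 contact. Among the clusters of chromosome 11, 6p22 met 11p15 distal more often, and 11q24 less often, than the expectation.

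**Figure D3:**
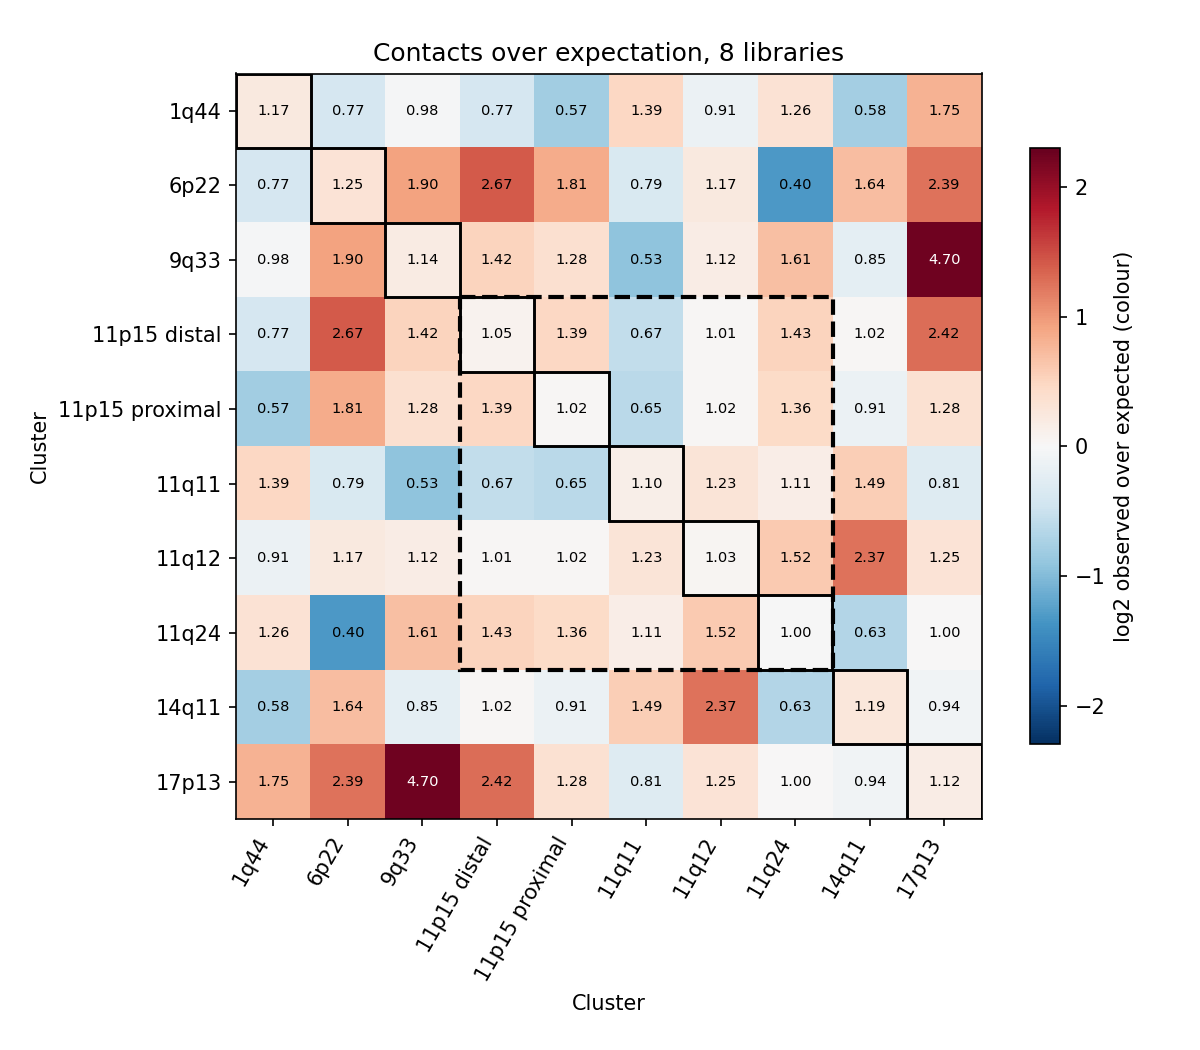
Observed over expected contacts of each pair of the 10 clusters (numbers; colour on a log2 scale), with the second-run libraries pooled for pairs on different chromosomes and averaged for pairs on chromosome 11 (dashed square) and within clusters (diagonal, boxed). The row of 6p22 runs from 0.40 with 11q24 to 2.67 with 11p15 distal.

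By cluster, the summed ratio with clusters of other chromosomes was highest for 17p13 (1.63, interval 1.38 to 1.91) and 11p15 distal (1.46, 1.26 to 1.68). It was 1.32 (1.18 to 1.47) for 6p22, 1.28 (1.14 to 1.45) for 11q12, 1.27 (1.10 to 1.46) for 9q33 and 1.24 (1.09 to 1.41) for 14q11. For 11q11 (1.09), 11p15 proximal (1.05), 11q24 (0.987) and 1q44 (0.940) the interval included 1. The 1q44 cluster carried the most contacts in these sums, and without it the pooled mean over libraries went from 1.18 to 1.36. Leaving out 6p22 lowered it to 1.12, 11p15 distal to 1.14, 17p13 to 1.14 and 11q12 to 1.15, and the lowest library was then at 0.978 without 6p22 and 0.998 without 11q12, so that the ratio above 1 in all 8 libraries was lost without either.

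The clusters also differed in the large-scale class of chromatin they belong to. Windows of 500 kb were split by an eigenvector of the contacts within each chromosome into class 1 (positive, 3416 windows) and class 2 (negative, 2141 windows). Both the eigenvector, out of the leading ones, and its sign were chosen so that class 1 windows tend to prefer the gene-rich chromosomes 17, 19 and 22. Far on the class 1 side lay 11p15 proximal (mean value 1.22), 11p15 distal (0.99) and 6p22 (0.98), and on the class 2 side 11q11 (−0.84) and 1q44 (−0.53). The other 5 were nearer 0: 11q12 at 0.39, 14q11 at 0.34, 11q24 at 0.31, 9q33 at 0.24 and 17p13 at −0.25. A bound of 0.5, chosen after these values were seen, gave 3 pairs of clusters of 1 class and 4 pairs of different class on different chromosomes.

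The 3 pairs of 1 class (6p22 with either 11p15 cluster, and 1q44 with 11q11) had a ratio of 1.85 (interval 1.60 to 2.13, 197 contacts), and the 4 pairs of different class 0.711 (0.595 to 0.842, 133 contacts). Both pairs of 6p22 carried the first value, at 2.67 (76 contacts) and 1.81 (55 contacts). The pair of class 2, 1q44 with 11q11, was at 1.39 (interval 1.07 to 1.76, 66 contacts), an interval that holds the mean of 1.34 of class 2 window pairs. By library the pairs of 1 class were at 2.13 and 1.94 (0.25 h), 1.70 and 1.64 (1 h), 1.66 and 2.04 (3 h), 1.80 and 1.94 (12 h). The pairs of different class were at 0.452 and 1.27 (0.25 h), 0.734 and 0.885 (1 h), 0.531 and 0.723 (3 h), 0.711 and 0.757 (12 h). The first set was above the second in every library, and the second was above 1 only in replicate 2 of 0.25 h, from 12 contacts. The classes were built from these same 8 libraries added together, so this order is a description and not independent support. The remaining 28 pairs were at 1.21 (1.13 to 1.30). Among them, clusters on the class 1 side by sign ran from 0.943 (14q11) to 4.70 (9q33) with 17p13, on the class 2 side. Inside the bound of 0.5 the side was not clear-cut. The 17p13 cluster had 20 bins in class 2 windows and 4 in class 1, and 14q11 had 15 in each. With 17p13, 11p15 distal was at 2.42 and 6p22 at 2.39. High ratios were thus not confined to the 3 pairs picked as 1 class. Windows, given for comparison, were classed by sign alone without the bound of 0.5, so they are not matched to the pairs picked by that bound. All window pairs of the genome averaged 1.11 ± 0.00523 within class 1, 1.34 ± 0.0367 within class 2 and 0.806 ± 0.0152 between classes (SD over 8 libraries). Divided by these, the pooled ratio of all receptor pairs was 1.07 ± 0.0624 against class 1 and 0.886 ± 0.0584 against class 2 windows. With flanks in place of the partner, the pairs of 1 class were at 1.08 (0.967 to 1.20) and those of different class at 0.594 (0.530 to 0.663).

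**Figure D4:**
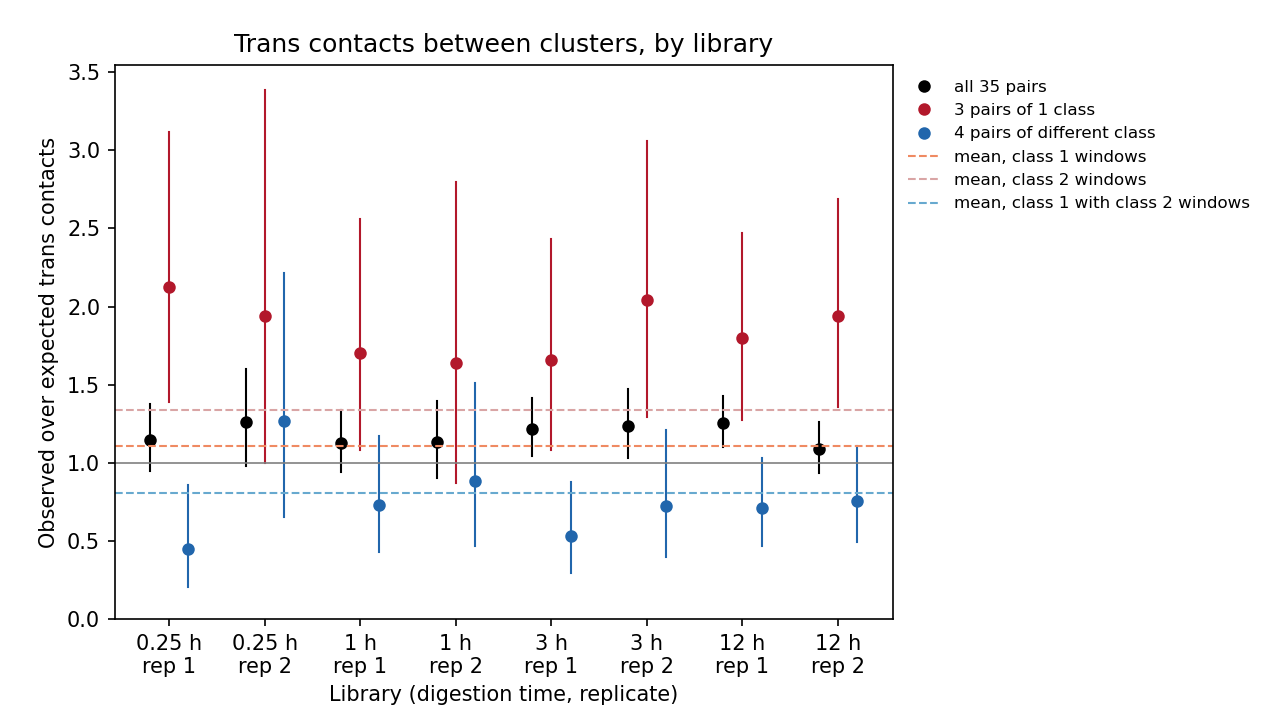
Observed over expected contacts between clusters of different chromosomes (y axis) in each of the 8 second-run libraries (x axis), with 95% Poisson intervals as vertical lines. All 35 pairs (black) stay between 1.09 and 1.26, and the 3 pairs of 1 class (red) lie at 1.64 or above. Dashed lines give the means of all class 1, class 2 and mixed window pairs, classed by sign alone.

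The share of contacts made with other chromosomes, of all contacts that leave a bin, was 15.1% ± 0.520 over the receptor bins (SD over 8 libraries) against 12.9% ± 0.471 over all bins. The flanks of the clusters were at 14.98% ± 0.612, within the spread of the receptor bins. It was 14.2% and 15.2% (0.25 h), 14.7% and 15.2% (1 h), 14.7% and 15.2% (3 h), 15.6% and 15.9% (12 h). Both 12 h libraries were the highest, but rho did not pass the test at 0.586 (exact permutation p = 0.153, adjusted 0.306 over 4 pooled trends), while r was 0.721 (exact p = 0.0452), or 0.806 without the 0.25 h and 0.280 without the 12 h libraries. Without replicate 2 of 0.25 h, rho was 0.826 with an exact permutation p of 0.0381. With self contacts included in the denominator, rho over all 8 libraries was 0.927 and passed the test (exact permutation p = 0.00317). The log2 ratio of the receptor share to that of all bins was not higher at 12 h, at 0.235 ± 0.000978 (0.25 h) and 0.227 ± 0.00110 (12 h; SD, n = 2; rho −0.683, exact permutation p = 0.0825). The clusters ranged from 11.6% ± 0.267 in 11q11 and 13.6% ± 0.652 in 11q24 to 23.03% ± 1.19 in 14q11 and 26.3% ± 0.821 in 17p13, whose chromosome as a whole was at 19.95%. Flanks of 14q11 and 17p13 were at 22.4% and 26.7%.

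The partner chromosomes differed as well, and since they served to choose the eigenvectors and the sign of the classes they are a description. Relative to the whole of their own chromosome, 14q11 took 1.73 ± 0.0633 times and 6p22 1.54 ± 0.0921 times the usual share of trans contacts with the gene-rich chromosomes 17, 19 and 22 (its own left out for 17p13), and 11p15 proximal 1.18 ± 0.0620, 11p15 distal 1.15 ± 0.0331 and 17p13 1.14 ± 0.129 times. These 5 were above 1 in all 8 libraries. Below 1 in all 8 were 9q33 (0.444 ± 0.0296), 1q44 (0.537 ± 0.0592), 11q24 (0.745 ± 0.0620) and 11q11 (0.814 ± 0.0421). The partners did not always go with the class: 17p13 lay on the class 2 side (mean value −0.25), and 9q33 (0.24) and 11q24 (0.31) on the class 1 side. The gene-poor chromosomes 4, 13 and 18 were over-represented in all 8 libraries in 11q11 (1.16 ± 0.0432), 1q44 (1.12 ± 0.0519) and 11q24 (1.06 ± 0.0210), and under-represented in all 8 in 6p22 (0.803 ± 0.0237), 17p13 (0.852 ± 0.0568) and 9q33 (0.857 ± 0.0304). The 9q33 cluster was low with both kinds of chromosome. Its reference, the whole of chromosome 9, includes the contacts of the ABL1 and BCR windows with chromosome 22. With chromosome 22 left out as a partner, a setting chosen after seeing the data, the gene-rich ratio of 9q33 was 0.576 ± 0.0475, still below 1 in all 8 libraries, that of 14q11 was 1.31 ± 0.0478 and that of 17p13 1.32 ± 0.169. No cluster named here changed its side of 1.

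Within chromosome 11, pairs of clusters were compared in the deposited balanced signal with other bin pairs at the same distance. Over the 10 pairs the ratio was 1.30 ± 0.0218 (SD over 8 libraries) with no trend detected (rho −0.146, r −0.306, exact permutation p = 0.761 and 0.483; r −0.269 without the 0.25 h and −0.0578 without the 12 h libraries). Most of the contacts were those of the 2 neighbouring pairs. Both 11p15 clusters, only 0.14 Mb apart, were at 1.42 and 1.32 (0.25 h), 1.38 and 1.37 (1 h), 1.43 and 1.39 (3 h), 1.43 and 1.37 (12 h), from 56271 contacts. The globin interval that lies between them was at 0.988 ± 0.0311 with the distal and 0.985 ± 0.0310 with the proximal cluster. The fish-like clusters met each other above the distance average, and the interval that parts them met each near that average in the mean over libraries. With the distal cluster the interval was at 1.00 and 1.03 at 0.25 h and at 0.939 and 0.944 at 12 h. With the proximal cluster it was at 0.956 and 1.03, then 0.962 and 0.953. The interval borders both clusters, so its ratios and that of the cluster pair cover different distances. The neighbours 11q11 and 11q12, 1 Mb apart, were at 1.23 ± 0.0325, above 1 in 8 of 8 libraries, but in recovered contacts without balancing their mean was 0.986. Their ratio was 1.26 ± 0.0270 at 0.25 h and 1.19 ± 0.00674 at 12 h (rho −0.781, exact permutation p = 0.0349, r −0.860, exact permutation p = 0.00714), which did not pass after adjustment over the 10 pairs (0.349 for rho). The other 9 pairs had unadjusted exact permutation p of 0.247 or more for rho.

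The 8 distant pairs, 48.7 to 118.4 Mb apart, pooled to 1.00 ± 0.0700, and they differed by cluster. The pair of 11q12 and 11q24, on the same arm, was at 1.52 ± 0.0990 from 622 contacts and above 1 in all 8 libraries, as was 11p15 distal with 11q24 (1.43 ± 0.223, 209 contacts). The pair of 11p15 proximal and 11q24 was at 1.36 ± 0.304, above 1 in 7 of 8. Both 11p15 clusters were low with 11q11: proximal at 0.647 ± 0.141 in all 8 libraries below 1, and distal at 0.673 ± 0.307. The latter mean rests on replicate 2 of 0.25 h, at 1.42, where the 7 other libraries were between 0.481 and 0.661. With 11q12 both were near 1 (1.01 ± 0.195 distal, 1.02 ± 0.143 proximal), and 11q11 with 11q24 was at 1.11 ± 0.181. In recovered contacts without balancing, the pairs of 11q24 with 11p15 distal, 11p15 proximal and 11q12 were higher, with means over the libraries of 2.24, 2.28 and 2.13. In the first run 11p15 distal with 11q24 was at 2.16 and 11p15 proximal with 11q11 at 0.396.

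Inside clusters, contacts between different bins of 1 cluster were at 1.10 times the average of their chromosome at the same distance at 0.25 h. The replicates were at 1.09 and 1.10 (0.25 h), 1.09 and 1.09 (1 h), 1.09 and 1.09 (3 h), 1.08 and 1.09 (12 h). The fall was small and ordered: rho was −0.976 and r −0.795 (exact permutation p = 0.000794 for each, rho 0.00317 adjusted over 4 pooled trends), with r −0.818 without the 0.25 h and −0.799 without the 12 h libraries. In recovered contacts without balancing it was no longer called (rho −0.488, exact permutation p = 0.247). The 6p22 cluster was the most self-associated (1.25 ± 0.00929), followed by 14q11 (1.19 ± 0.0205), 1q44 (1.17 ± 0.00895), 9q33 (1.14 ± 0.0155), 17p13 (1.12 ± 0.0274) and 11q11 (1.10 ± 0.00570). The lowest were 11p15 distal (1.05 ± 0.0112), 11q12 (1.03 ± 0.00402), 11p15 proximal (1.02 ± 0.0134) and 11q24 (1.00 ± 0.00766), which was at the distance average. In recovered contacts without balancing, 1q44 (0.779), 11q11 (0.772) and 17p13 (0.665) were below 1 and 9q33 (1.85) and 11q24 (1.68) far above it, so the order of the clusters rests on the balancing.

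By cluster the ratio fell with digestion in 3 of 10 after adjustment over the 10. In 11p15 distal it went from 1.06 and 1.08 at 0.25 h to 1.05 and 1.04 at 12 h (rho −0.976, exact permutation p = 0.000794, adjusted 0.00794). In 11p15 proximal it went from 1.03 and 1.03 to 1.00 and 0.994 (rho −0.927, exact permutation p = 0.00317, adjusted 0.0159), and in 1q44 from 1.18 and 1.18 to 1.16 and 1.16 (rho −0.878, exact permutation p = 0.0103, adjusted 0.0344). In the 50 kb bins of the first run the exact permutation p of these 3 was 0.761, 0.761 and 0.110. In recovered contacts it was 0.672 for 11p15 distal and 0.361 for 1q44, where rho turned to 0.390, and leaving out neighbouring bins it was 0.861 for 11p15 proximal. Recovered contacts gave trends that the balanced signal did not: rising in 6p22 and 17p13 (rho 0.878 and exact permutation p = 0.0103 in both) and falling in 11q24 (rho −0.976, exact permutation p = 0.000794). The other 7 clusters had adjusted p between 0.137 (11q24) and 0.946 (14q11).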

How the data were processed

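Hi-C contacts of K562 cells were measured after 4 digestion times, with 2 replicates per time and 2 sequencing runs. Per the submitters' processing notes the authors used HiC-Pro 2.11.1 and Bowtie2 2.3.4.1 with hg19. The deposited values are a balanced signal per bin pair, in 50 kb bins (first run) and 20 kb bins (second run). Whole contacts were recovered from this deposited signal: 100% of values lay within 0.01 of a whole number, and totals equalled the deposited totals (first run 8918994 to 20237350).

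Bins present in all 8 second-run files were used, on chromosomes 1 to 22 and X. Trends are exact two-sided permutation tests (2520 arrangements; 576 with the replicate block). Bins with at least 50 contacts in every library were fitted with limma 3.58.1 (R 4.3.3; log2 CPM and TMM factors computed by their formulas), with a pseudocount of 0.5 for the self-bin share, and called at Benjamini-Hochberg adjusted p under 0.05. Scripts were tested on simulated data. For trans pairs the expectation was the product of each cluster's contacts with the other's chromosome over the contacts between both chromosomes. For cis pairs it was the mean signal of the chromosome at the same distance. Poisson intervals (95%) cover counting error only.

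Named singly were the 3 highest and 3 lowest trans pairs, all 10 cis pairs, the highest and lowest bin of each cluster by self-bin share, and the 5 called bins with the largest change in each direction whose libraries did not overlap. Pairs named beyond this rule were chosen after their values were seen. The members and lists were chosen with earlier results of these data known. Replicate numbers, shared by the labels, paired the samples weakly in coverage (correlation of replicate differences 0.113 to 0.253 in 6 pairs of times). In the self-bin share the correlation was 0.0170 to 0.129. The coverage counts above came from the fit without this pairing. With the replicate block, 93 receptor bins were higher and 187 lower at 0.25 h than at 12 h, beside 31272 and 51488 of 136967 bins. Alternatives were other scalings, minimums, expectations, the first run, the replicate block and each library left out. Sites of HindIII per bin were not analysed here.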

Additional observations from a re-analysis of the deposited data

How the results depend on the processing

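The fall of the self-bin share kept its direction and call over all receptor bins and in each of the 10 clusters without each library (rho −0.973), and lost the call only with the median over bins in 14q11 (exact permutation p = 0.0825) and 17p13 (p = 0.110). Its log2 ratio to all bins had rho between −0.808 (without replicate 2 of 1 h, exact permutation p = 0.0381) and −0.477 without single libraries, −0.781 against the flanks (p = 0.0349), 0.390 with the next bin included and 0.586 with the median over bins. The trans trend ran from −0.385 to 0.220 without single libraries, −0.586 in the balanced signal (exact permutation p = 0.153), −0.439 in the first run (p = 0.300), 0.293 divided by the flanks, and 0.195, 0.195, 0.0976, 0.342 and 0.0488 without 6p22, 11p15 distal, 11p15 proximal, 11q12 and 11q24. The cis trend ran from −0.385 to 0.220 and was 0.0976 in the first run. The trend within clusters was −0.488 in recovered contacts. By cluster it turned sign in recovered contacts in 1q44 (0.390), 9q33 (−0.0488), 11q12 (0.0488) and 14q11 (−0.683), without neighbouring bins in 9q33 (−0.195) and 14q11 (−0.195), and in the first run in 9q33 (−0.342) and 17p13 (−0.537). Without single libraries it ran from −0.0184 to 0.624 in 6p22 and from −0.165 to 0.514 in 14q11. The trans share had rho from 0.385 to 0.826, and 0.927 (exact permutation p = 0.00317) with self contacts in the denominator.

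The 298 bins called for the self-bin share became 243 to 294 without single libraries. Minus the library median they were 138, or, without replicates 1 and 2 in turn, 198 and 83 (0.25 h), 116 and 113 (1 h), 94 and 93 (3 h), 44 and 55 (12 h), 144 with the replicate block and 145 with at least 200 contacts. The 253 bins called for coverage became 168 to 261 without single libraries and 18 with trans contacts only, those higher 55 to 83 and 8, and those lower 113 to 179 and 10. The level of trans contacts was 1.32 in the balanced signal, 1.33 divided by the flanks, 1.05 in the first run, 1.36 without 1q44 and between 1.12 (6p22) and 1.23 (11q24) without each other cluster. The cis level was 1.34 in the first run, and the level within clusters 1.04 in recovered contacts, 1.12 without neighbouring bins and 1.12 in the first run. The pair of 11q11 and 11q12 was at 0.986 in recovered contacts. The cause of these changes was not tested. With the replicate block, exact permutation p was 0.00347 for the self-bin share and the contacts within clusters, 0.0729 for the log2 ratio, 0.778 for trans, 0.691 for cis and 0.108 for the trans share, and 305 and 280 bins were called for self-bin share and coverage. The block changed no call among these trends. Single trans pairs rested on 7 to 86 contacts over all libraries.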
